A study of Arabidopsis thaliana with 6 samples.

Results

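The wild-type transcriptome of Arabidopsis thaliana seedlings was described from 3 libraries, as a baseline with no comparison to another genotype. The plants were of the col background, grown in vitro and sampled as seedlings at 14 days of age. The study holds 6 libraries in all, and the other 3, from the mutant line atrx-1, were not used here. Total RNA was extracted with Trizol and depleted of ribosomal RNA, so no selection for polyadenylated RNA is described in the labels. Genes were included if they lie in the nuclear genome and carry the biotype protein_coding in the deposited table, which gave 22165 of 23640 features. The table lacks some known genes, so shares and medians over all nuclear protein-coding genes cover only those it holds. No treatment is given, and nothing in the labels says whether the 3 libraries came from separate cultures or plants, so the spread between them may be technical. Several organs contribute to each library, and more cells of a type cannot be told apart from more RNA per cell.

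A green seedling lives from photosynthesis in its cotyledons and leaves, and most chloroplast proteins are encoded in the nucleus, translated in the cytosol and imported. Among them are the chlorophyll-binding antenna proteins that collect light, the nuclear subunits of both photosystems, and the small subunit of Rubisco, the enzyme that fixes carbon dioxide. Cytosolic ribosomal proteins form the other large class of messages in growing plant tissue.

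Library depth differed strongly. The deposited totals were 3475037 counts in library 1, 936243 in library 2 and 3624088 in library 3, and nuclear protein-coding genes held 34.9%, 38.1% and 33.0% of them. At these depths 1 read on a gene of median length was worth 0.631, 2.29 and 0.658 TPM, where TPM is the count divided by gene length and scaled to a common total over the nuclear protein-coding genes of that library. A count of 0 allows a level of up to 1.89, 6.86 and 1.97 TPM for such a gene, counting 3 reads as the limit and covering counting error only. Library 1 stood apart from the other pair: across the 2382 genes with at least 200 reads summed over the libraries, Spearman's correlation of levels was 0.711 with library 2 and 0.727 with library 3, against 0.878 between libraries 2 and 3. The genes in each of these correlations share library, depth and length, and are not independent replicates. For some results that rest on library 1, a value without it is therefore given as well.

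Reads fell on 19773 nuclear protein-coding genes in library 1, 17006 in library 2 and 19294 in library 3. Brought to the depth of the shallowest library, the numbers were 17635, 17006 and 16990, so the gap between libraries 2 and 3 closed and library 1 kept the most genes. In all 3 libraries 16453 genes had at least 1 read, and 1545 genes had none in any. At least 1 TPM in every library was reached by 15805 genes, and at least 100 TPM by 1126. The median gene had a mean level of 9.0 TPM. The 100 most abundant genes of each library held 31.9%, 35.0% and 34.7% of the TPM (mean 33.9 ± 1.69, SD, n = 3; 34.9 without library 1). Library 1 needed 457 genes to reach 50% of its TPM, library 2 needed 379 and library 3 needed 369. The same 76 genes were among the 100 highest in all 3 libraries, and libraries 2 and 3 shared 88.

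The gene with the highest mean level was AT2G31141, annotated as protein-coding with no known function, and its locus holds a sequence much like a structural RNA. The gene lies on chromosome 2 at 13271726-13272534 on the minus strand (deposited coordinates, TAIR10). On the opposite strand it holds a stretch that matches AT7SL-1, a gene of the 7SL RNA of the signal recognition particle, at 83.6% identity over 317 aligned positions. A 176-base part of that match is shown with its counterpart, 5′ to 3′ on the plus strand of the RefSeq assembly TAIR10.1. Capitals mark the 146 bases that are identical in both.
AT2G31141, chr2:13271982-13272157: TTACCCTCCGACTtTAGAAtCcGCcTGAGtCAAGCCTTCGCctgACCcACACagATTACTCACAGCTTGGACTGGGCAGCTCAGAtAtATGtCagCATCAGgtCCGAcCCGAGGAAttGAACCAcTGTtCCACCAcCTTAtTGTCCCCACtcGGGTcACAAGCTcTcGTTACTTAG
AT7SL-1, chr4:1319003-1319179: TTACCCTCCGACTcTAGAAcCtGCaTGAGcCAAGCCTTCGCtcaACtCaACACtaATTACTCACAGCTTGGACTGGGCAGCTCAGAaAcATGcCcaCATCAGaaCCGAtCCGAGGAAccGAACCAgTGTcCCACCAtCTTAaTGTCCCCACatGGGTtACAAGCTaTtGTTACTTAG
The level of AT2G31141 was 32725 TPM in library 1, 4784 in library 2 and 14654 in library 3, from 21043, 849 and 9034 reads. Library 2 was far below the others. Its place at the top rests on library 1: the mean without that library was 9719 TPM, below LHCB1.3 (18834), PSBR (16910), RBCS1A (13305), LHCB1.5 (11863) and LHCA4 (10968). No source used here states whether counting used strand, so reads of a 7SL-like transcript and of the annotated gene cannot be told apart.

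Other genes that hold a small structural RNA were also highest in library 1. AT2G35750, of unknown function, contains the small nucleolar RNA gene AT2G08770 and stood at 12826, 1597 and 6061 TPM in libraries 1, 2 and 3. PRIN2 (AT1G10522), which encodes a plastid protein, holds a 242-position match of 94.6% identity to the U3 small nucleolar RNA gene U3D. It had 972, 14 and 441 reads, and U3D itself had 771, 6 and 296. AT4G23420, which hosts the U1 small nuclear RNA gene U1.2, had 5998, 693 and 2389 reads, or 3350, 1402 and 1392 TPM, so that libraries 2 and 3 were level. The search for such matches covered 143 genes, the 100 most abundant and those farthest from both other libraries. Genes outside these were not searched. Together the 4 matching genes took 4.98% of the nuclear protein-coding TPM in library 1, 0.783% in library 2 and 2.25% in library 3. Outside the protein-coding class, the non-coding RNA AT1G15405 alone took 6.97%, 0.941% and 3.84% of all counts. Apart from AT4G23420, each of these genes was lowest in library 2, and the part of structural RNA in other differences between the libraries was not tested. PRIN2, outside the 100 most abundant genes, was searched only because it stood far from both other libraries in 1 library. Its order of libraries is thus not independent of that choice. AT2G07671, which ranked 10 in mean level, lies in the mitochondrial DNA insertion of chromosome 2 and matches the mitochondrial genome over 776 positions at 100% identity. Its 9628, 7348 and 5198 TPM cannot be told apart from mitochondrial transcripts. The 53 genes numbered AT2G07600 to AT2G07999 held 1.14%, 0.881% and 0.67% of the TPM. They were chosen by identifier, and whether each lies in the insertion was not checked.

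With these set aside, photosynthesis filled the top of the list. Of the 25 genes with the highest mean level, 20 belonged to the lists of antenna, photosystem, electron transport and Rubisco genes, and of the 100 highest, 51 did so when Calvin cycle genes were added. PSBR, a photosystem II subunit of the oxygen-evolving side (AT1G79040, chromosome 1, 29736016-29737009), was at 12170, 15721 and 18100 TPM. LHCB1.3 (AT1G29930, chromosome 1, 10478005-10479048), an antenna protein of photosystem II, was at 12059, 22685 and 14982 TPM, with library 2 above the other pair. The small subunit gene RBCS1A (AT1G67090, chromosome 1, 25048158-25049424) was at 6166, 13598 and 13012 TPM, so that library 1 was the low one and libraries 2 and 3 were close. The remaining member of the 25 that encodes a photosystem protein, AT1G51400, is described as a photosystem II protein and stood at 3539, 4526 and 4585 TPM. Besides photosynthesis and the set-aside genes, the one other member was RPL41E (AT3G08520), a ribosomal protein of the large subunit only 78 nt long in the table, at 6729, 2386 and 4358 TPM from 562, 55 and 349 reads. Of these 25 genes, 11 (44.0%) overlapped another annotated gene in TAIR10.1, against 30.3% of all nuclear protein-coding genes.

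**Figure D1:**
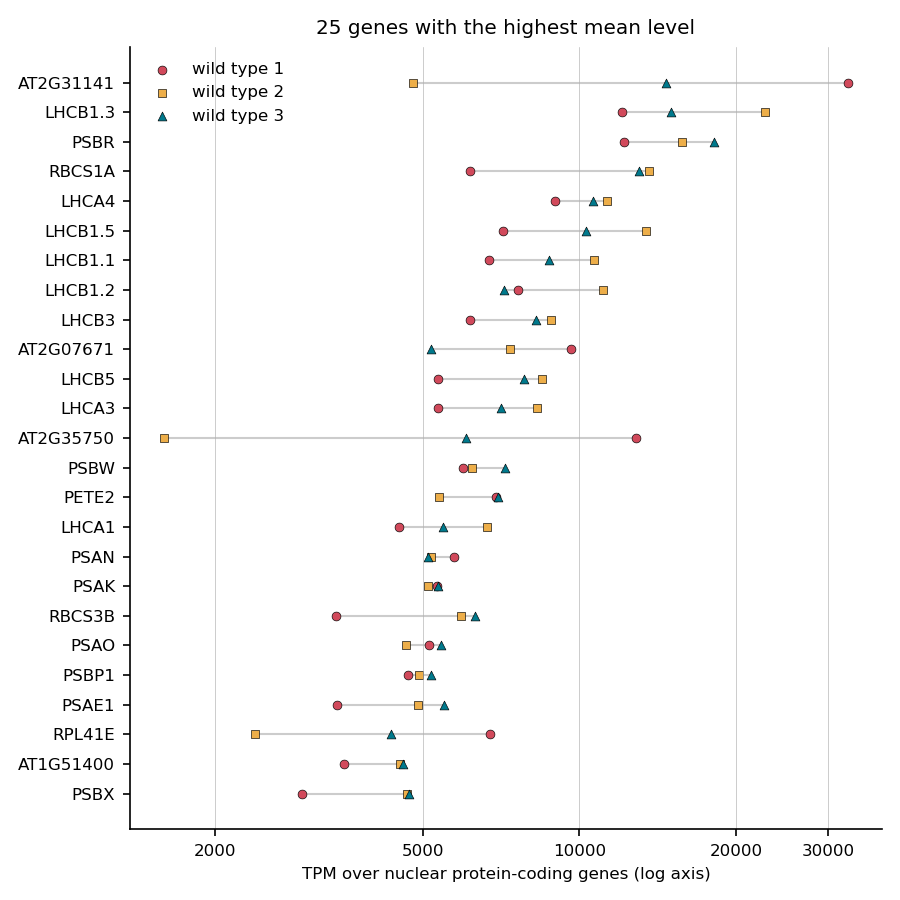
Levels of the 25 nuclear protein-coding genes with the highest mean TPM, on a log axis, in order of the mean; each point is 1 wild-type library and the grey line spans the 3. AT2G31141 and AT2G35750 span the widest range, from 4784 to 32725 and from 1597 to 12826 TPM, while PSAK stayed between 5132 and 5346 TPM.

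The light-harvesting antenna held more of the TPM than any other list apart from the combined one. Its 20 genes held 7.96%, 12.8% and 10.3% of the TPM (mean 10.4 ± 2.42, SD, n = 3; 11.6 without library 1), with a median level of 3616 TPM. That order turned when genes that overlap another gene were left out: the antenna then held 7.99% and ribosomal proteins 8.51%. The 5 genes of LHCB1, the major trimeric antenna protein, spanned 1061 TPM (LHCB1.4) to 16575 TPM (LHCB1.3) in mean level. LHCB1.1, LHCB1.2 and LHCB1.3 are near-identical neighbours on chromosome 1, so the division of reads among them is uncertain. LHCB3, the third trimer component, was at 7737 ± 1395 TPM, and the 3 LHCB2 genes were between 1721 and 3756 TPM. Among the minor antenna proteins LHCB5 was highest, at 7224 ± 1652 TPM, and LHCB4.3 was lowest, at 20.7 ± 3.52 TPM. The photosystem I antenna ran from LHCA4 at 10305 ± 1195 TPM through LHCA3, LHCA1 and LHCA2 at 6910, 5547 and 3477 TPM to LHCA5 and LHCA6 at 183 and 139 TPM (SD, n = 3 each). LHCA5 and LHCA6, known as linkers of photosystem I to the NDH complex, thus sat far below the structural antenna. Of the 20 genes, 17 were lowest in library 1, against 5731 of all 22165 genes. That background is not matched for abundance and includes 1545 genes with no read. Among genes with at least 200 summed reads, TMM-scaled CPM in library 1 was above library 2 in 1 of 19 antenna genes and 1028 of all 2382. It was above library 3 in 1 of 19 and 888 of 2382.

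Nuclear subunits of the photosystems followed, with 6.80%, 8.55% and 8.62% of the TPM over 23 genes, of which 22 were among the 100 highest. On the photosystem I side PSAN, PSAK and PSAO differed little between libraries, at 5350 ± 335, 5267 ± 118 and 5078 ± 397 TPM (SD, n = 3 each). PSAE1, which docks electron carriers on the stromal side, was at 3421, 4906 and 5507 TPM. Its partner copy PSAE2 was lower, at 1122 ± 173 TPM. On the photosystem II side the small membrane subunits PSBW and PSBX were at 6471 ± 651 and 4107 ± 1013 TPM. The extrinsic proteins PSBP1, PSBO1 and PSBQ2, which stabilise the oxygen-evolving cluster, were at 4937, 3792 and 2792 TPM. PSBS, required for the dissipation of excess light energy, was at 1264, 2587 and 2356 TPM, with library 1 below the others.

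Electron carriers and carbon fixation came next. PETE2, the main plastocyanin gene, was at 6424 ± 900 TPM, and its copy PETE1 was at 323 ± 74.9 TPM. Ferredoxin FD2 was at 1113, 2149 and 1602 TPM, and FD1 was at 284, 885 and 1063 TPM. Rubisco small subunits and Rubisco activase together held 1.68%, 2.89% and 2.84% of the TPM. RCA, the activase, was at 4396, 4175 and 3485 TPM, with library 1 the highest, whereas each small subunit gene was lowest in library 1. The small subunit genes RBCS3B, RBCS2B and RBCS1B stood at 5214, 3594 and 945 TPM, and these neighbours on chromosome 5 are close copies whose reads may be divided wrongly. Calvin cycle genes were led by GAPA1, FBA2, FBA1 and GAPB, 2 dehydrogenase and 2 aldolase genes, at 1887, 1855, 1684 and 1528 TPM. Photorespiration, the salvage route for the oxygenase product of Rubisco, was led by AGT1, GGT1 (AT1G23310), GOX1 and CAT2 (AT4G35090) at 1598, 1433, 1265 and 1127 TPM. PGLP1, the phosphatase at the entry of that route, was listed with 2, 1 and 3 reads, and it has a near-identical tandem copy that can hide its reads.

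**Figure D2:**
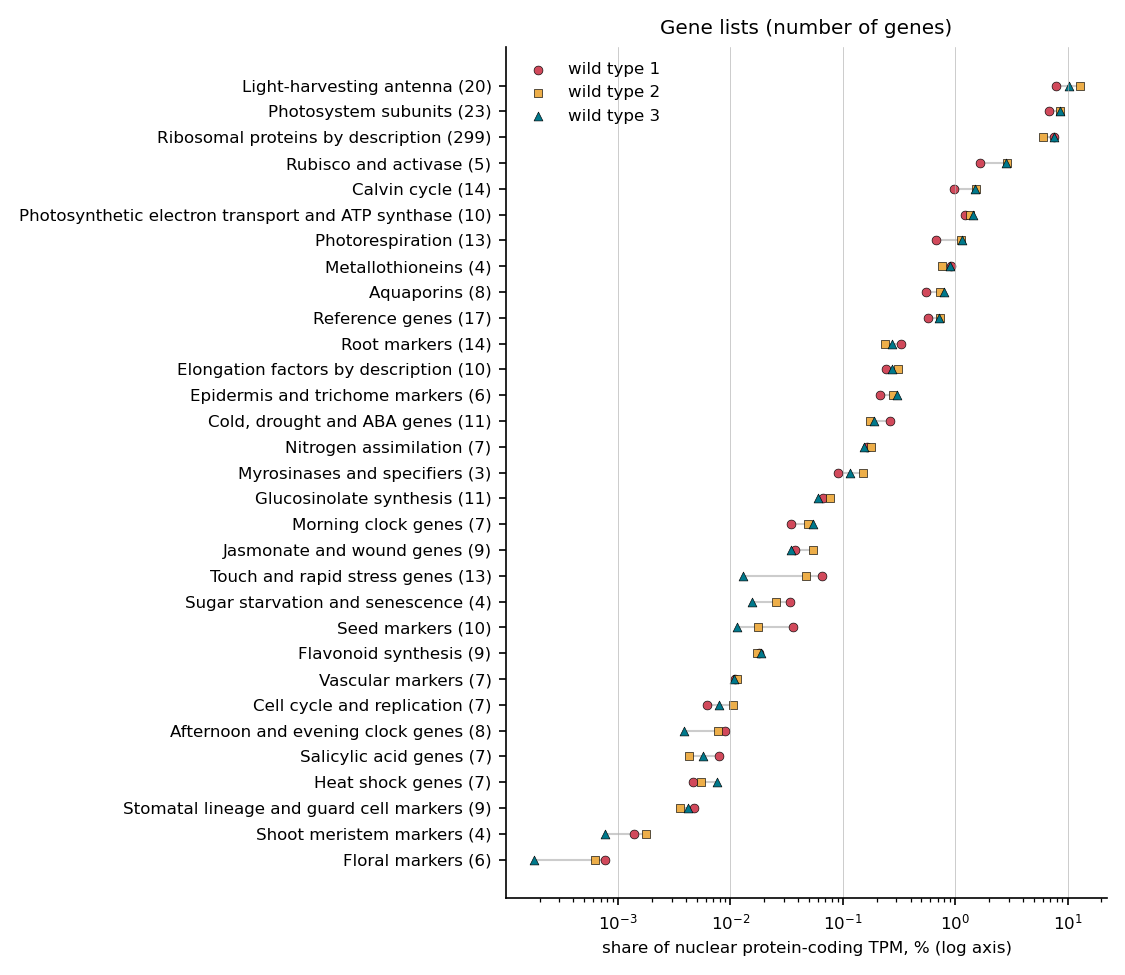
Share of nuclear protein-coding TPM held by each gene list, in percent on a log axis, with 1 point per wild-type library and the number of genes in brackets. The antenna held 7.96% to 12.8% and ribosomal proteins 6.0% to 7.60%; floral markers sat at the bottom, and touch genes were spread most widely among the lists above 0.01%.

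Ribosomal proteins were the other large class. The 299 genes with ribosomal protein in their description, organelle ones left out by name, held 7.58%, 6.0% and 7.60% of the TPM, and the 220 whose description names the 40S or 60S subunit held 6.91%, 5.36% and 6.85%. The median level of the 220 was 229 TPM, against 9.0 TPM over all nuclear protein-coding genes. Their leading members beside RPL41E (AT3G08520) were its copy RPL41E (AT1G56045) at 1255 ± 479 TPM, RPL23C (AT3G04400) at 1205 ± 230 TPM and RPL40B (AT3G52590), a ubiquitin fusion, at 1083 ± 87.1 TPM (SD, n = 3 each). Many of these genes have close copies, so single values are less certain than the sum. SSR16, at 2312 ± 239 TPM, entered the wider list by its description and is by its name a small-subunit protein of the organelle type. The 10 translation elongation factor genes held 0.242%, 0.312% and 0.275%, led by eEF-1Bb1 at 749 ± 68.1 TPM and EF1A4 at 664 ± 188 TPM.

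The photosynthesis and ribosomal classes carry different sequence words before their gene starts. In the 250 bases upstream of the annotated start, searched on both strands, site II (TGGGCC) occurred in 55.9% of the 220 cytosolic ribosomal protein genes against 15.5% of 22104 genes, and the telo-box (AAACCCTA) in 20.9% against 3.58%. The I-box (GATAAG) occurred in 22.2% of the 72 photosynthesis genes against 12.4%, and the G-box (CACGTG) in 18.1% against 7.37%. The TATA box (TATAAA, gene strand only) did not set the classes apart in this way, at 29.2%, 35.9% and 32.0% of photosynthesis, ribosomal and all genes. Both classes were chosen by function, the windows come from TAIR10.1, and a word is no measured binding site. An upstream stretch of each class is shown 5′ to 3′ on the gene's strand, ending at the base before the gene start, with the words in capitals. Each gene was chosen for its words and is not typical of its class. It is the most abundant of its class whose stretch overlaps no other gene and holds I-box and G-box, or site II and telo-box. RBCS2B holds the I-box in 3 places and the G-box in 1, and the ribosomal protein gene RPS9B (AT5G15200) holds site II in 3 places, each read as GGCCCA on this strand, with a telo-box, read as TAGGGTTT, next to the start and the TATA word in 2 places.
RBCS2B (AT5G38420), chr5:15382072-15382321, minus strand: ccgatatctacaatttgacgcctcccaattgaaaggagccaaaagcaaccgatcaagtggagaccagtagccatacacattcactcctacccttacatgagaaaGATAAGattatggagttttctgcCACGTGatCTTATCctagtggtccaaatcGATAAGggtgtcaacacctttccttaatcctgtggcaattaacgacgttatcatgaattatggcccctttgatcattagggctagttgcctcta
RPS9B (AT5G15200), chr5:4936430-4936679, minus strand: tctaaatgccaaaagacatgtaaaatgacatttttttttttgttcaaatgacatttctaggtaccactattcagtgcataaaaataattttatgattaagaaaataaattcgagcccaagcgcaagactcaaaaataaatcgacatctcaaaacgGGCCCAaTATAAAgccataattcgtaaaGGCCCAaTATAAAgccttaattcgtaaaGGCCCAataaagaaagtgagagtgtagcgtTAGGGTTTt

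Housekeeping and membrane genes formed a further abundant layer. Metallothioneins, small cysteine-rich metal-binding proteins, held 0.92%, 0.758% and 0.899% of the TPM through 4 genes, led by MT2B at 3690 ± 445 TPM and MT2A at 2230 ± 442 TPM. Aquaporins, the water channels, held 0.546%, 0.737% and 0.794%, led by PIP1;2 at 1806 ± 501 TPM and PIP2;1 at 1691 ± 493 TPM. Among 17 reference genes often used to scale qPCR, levels ran from UBQ10 at 1033, 1845 and 1681 TPM to MON1 at 17.2, 18.7 and 8.98 TPM. RHIP1 was the steadiest of them, at 71.5, 69.3 and 72.9 TPM, and the actin gene ACT2 was at 329, 362 and 369 TPM. UBQ10 and EF1A4 (479, 854 and 657 TPM) were both lowest in library 1. Of the 12 reference genes with at least 200 summed reads, 0 differed by more than 2-fold between any pair of libraries. Over all 2382 such genes the shares were 11.5% for libraries 1 and 2, 10.2% for 1 and 3 and 2.77% for 2 and 3, so a count of 0 in 12 is close to the background.

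Of the organ and cell type markers, 11 of 14 root, 5 of 6 epidermal and 6 of 7 vascular genes had a read in every library. So did 3 of 4 shoot meristem, 5 of 9 stomatal, 5 of 10 seed and 1 of 6 floral genes. Over all nuclear protein-coding genes of the deposited table the share was 74.2%. For lists this small, the root, epidermal, vascular and shoot meristem counts are all close to that background. The root list was low as a whole, with a median of 5.10 TPM. PYK10, a root beta-glucosidase of the endoplasmic reticulum bodies, was at 3035, 2031 and 2349 TPM and made up most of the root marker sum of 0.328%, 0.236% and 0.271%. The root aquaporin TIP2;2 was at 208 ± 56.3 TPM and the endodermal gene CASP1 at 27.1 ± 7.65 TPM. Epidermal LTP1, a lipid transfer protein, was at 2425 ± 463 TPM and CER6, a wax enzyme, at 174 ± 11.4 TPM. The phloem sucrose transporter SUC2 was at 46.3, 76.1 and 66.7 TPM. Shoot meristem and stomatal markers had few reads: the meristem gene CLV1 had 34, 8 and 19 reads, guard cell MYB60 had 12, 3 and 9, and CLV3 and EPF1 had none. Of 6 floral markers, 4 (AP1, AP3, AG and the tapetal gene AMS) had no read. The remaining floral markers PI and SEP3 had 2, 2 and 1 and 7, 0 and 1 reads. The shoot meristem, seed and floral lists name 5, 11 and 9 genes. Of these, WUS, LEC1, LFY, SPL and MS1 (AT5G22260) are not among the nuclear protein-coding genes of the deposited table. They are therefore left out of the numbers of markers above. SAG12 and MT1A, of other lists, are missing from it too.

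A trace of seed storage messages remained and differed between libraries. CRA1, a cruciferin storage protein, was at 141, 102 and 54.1 TPM, and CRC, another cruciferin, at 72.2, 32.2 and 6.01 TPM. SESA1, a seed albumin, had 28, 0 and 2 reads. All 10 seed markers together held 0.0359%, 0.0176% and 0.0114% of the TPM, highest in library 1, from 522, 77 and 150 reads.

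Morning clock genes were the more abundant ones in every library. The dawn transcription factors CCA1 and LHY stood at 59.0, 155 and 119 TPM and at 41.8, 83.8 and 76.7 TPM, and their coactivator LNK2 at 97.6, 117 and 136 TPM. Several afternoon and evening genes had few reads or none: TOC1 had 15, 3 and 13 reads, PRR5 had 1 in each library, FKF1 had 1, 0 and 0, and ELF4 had none. CHE, a regulator of CCA1, was the exception in the afternoon and evening list, at 63.7, 47.4 and 20.0 TPM. The morning list summed to 0.0343%, 0.0492% and 0.0538% of the TPM and the other to 0.00899%, 0.00769% and 0.00389%, so the morning sum was the larger in each library. The hour of sampling is not given in the labels.

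Of the touch genes, which respond rapidly to handling, TCH2, TCH3 and TCH4 were each highest in library 1 and lowest in library 3. TCH3, a calmodulin-like protein (AT2G41100, chromosome 2, 17137829-17139612), was at 286, 112 and 29.0 TPM, and it overlaps other annotated genes. TCH4, a cell wall xyloglucan enzyme, was at 148, 127 and 35.6 TPM, and TCH2, also calmodulin-like, at 154, 35.3 and 30.5 TPM. Transcription factors of the same rapid response had few reads and their highest TPM in library 2: WRKY33 had 39, 28 and 16 reads and ERF5 had 12, 17 and 10. The whole list summed to 0.0658%, 0.0472% and 0.0130%. Without genes that overlap another gene, TCH3 among them, it summed to 0.0295%, 0.0371% and 0.00916%, so library 2 was then above library 1 and library 3 still lowest.

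Cold, drought and abscisic acid genes showed another order. KIN2, the most abundant of them, was at 1241, 761 and 893 TPM. The dehydrins COR47 and ERD10 were at 343, 114 and 130 TPM and at 317, 119 and 96.6 TPM, and RAB18 at 127, 46.5 and 62.5 TPM, all highest in library 1. COR413-PM1, a membrane protein of the same list, went the other way at 319, 439 and 445 TPM. Heat shock genes were low, with HSP70-4 at 40.6 ± 13.1 TPM and no read for HSP17.4 or HSP17.6II. The salicylic acid marker PR1 had 14, 2 and 5 reads, and the jasmonate-responsive storage protein VSP2 was at 74.1, 215 and 137 TPM. The jasmonate defensin PDF1.2 had 1, 0 and 0 reads.

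**Figure D3:**
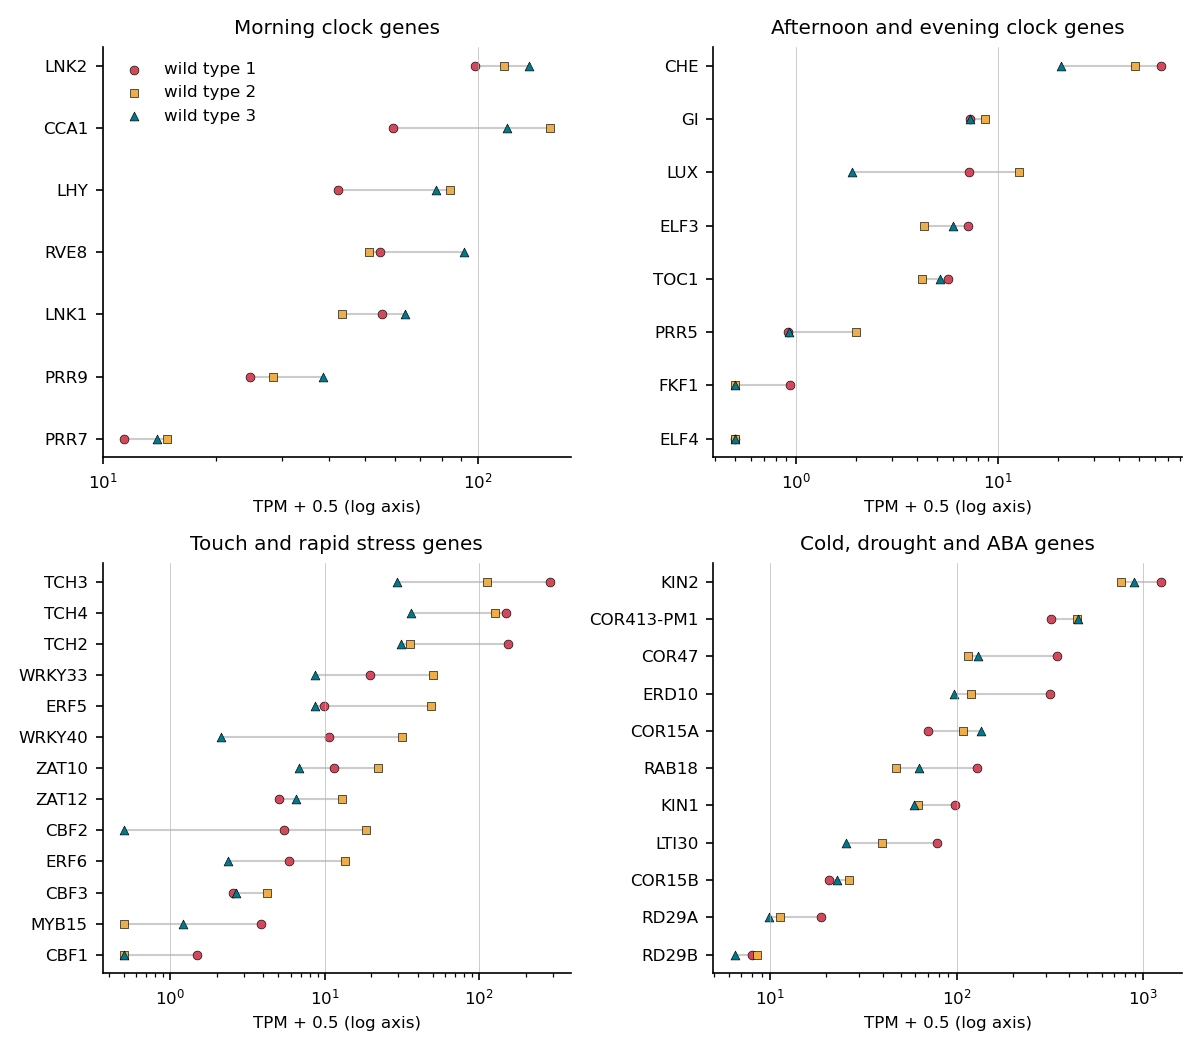
Levels of every gene of 4 lists in the 3 wild-type libraries, as TPM + 0.5 on a log axis whose range differs between panels; points are libraries and grey lines span them. Morning clock genes lie above 10 TPM in each library, most evening genes below; TCH3, TCH4 and TCH2 are lowest in library 3, and COR47 and ERD10 are highest in library 1.

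Specialised metabolism left clear messages. The myrosinase TGG1, which hydrolyses glucosinolates on wounding, was at 729, 1202 and 968 TPM. Glucosinolate synthesis genes summed to 0.0663%, 0.0775% and 0.0603%, led by CYP83A1 and BCAT4 of the methionine-derived branch at 140 ± 29.7 and 109 ± 29.8 TPM. The flavonoid entry enzyme CHS was at 68.3, 70.4 and 64.7 TPM. Nitrogen assimilation was led by the plastid glutamine synthetase GLN2 at 883 ± 117 TPM and the nitrate reductase NIA2 at 451, 362 and 298 TPM. Cell cycle genes were low, from CDKA;1 at 45.6 ± 21.0 TPM to the mitotic cyclin CYCB1;1 at 1.89 ± 0.191 TPM from 3, 1 and 3 reads.

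Differences between single libraries were counted on CPM with TMM scaling, which is not divided by length, over the 2382 genes with at least 200 summed reads. With 1 library on each side no test of a difference exists, so a gene was counted when its fold passed 2. Libraries 1 and 2 differed past 2-fold in 274 genes (11.5%), libraries 1 and 3 in 243 (10.2%), and libraries 2 and 3 in 66 (2.77%). When the exact 95% binomial interval of the ratio, which covers counting error only, had to lie past 2-fold, 80, 93 and 12 genes remained counted. The median biological coefficient of variation in edgeR was 24.8% over the 3 libraries, 15.6% without library 1, 28.8% without library 2 and 28.4% without library 3. Library 1 lay more than 2-fold above both others in 70 genes (2.94%) and below both in 73 (3.06%). For library 2 the numbers were 3 (0.126%) and 22 (0.924%), and for library 3 they were 3 (0.126%) and 15 (0.63%).

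Scaling shifts all such differences together. Under TMM the median log2 difference over all tested genes was -0.10 for library 1 minus 2, -0.17 for 1 minus 3 and -0.09 for 2 minus 3, and with plain totals it was -0.01, -0.03 and -0.04. The direction of the calls moved with it: library 1 was the higher one in 146 of 274 genes against library 2 under TMM and in 182 of 271 with plain totals, and against library 3 in 110 of 243 and in 142 of 214. As shares of the tested genes under TMM, library 1 was higher in 6.13% and lower in 5.37% against library 2, and higher in 4.62% and lower in 5.58% against library 3. Library 2 was higher than library 3 in 1.18% and lower in 1.6%.

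**Figure D4:**
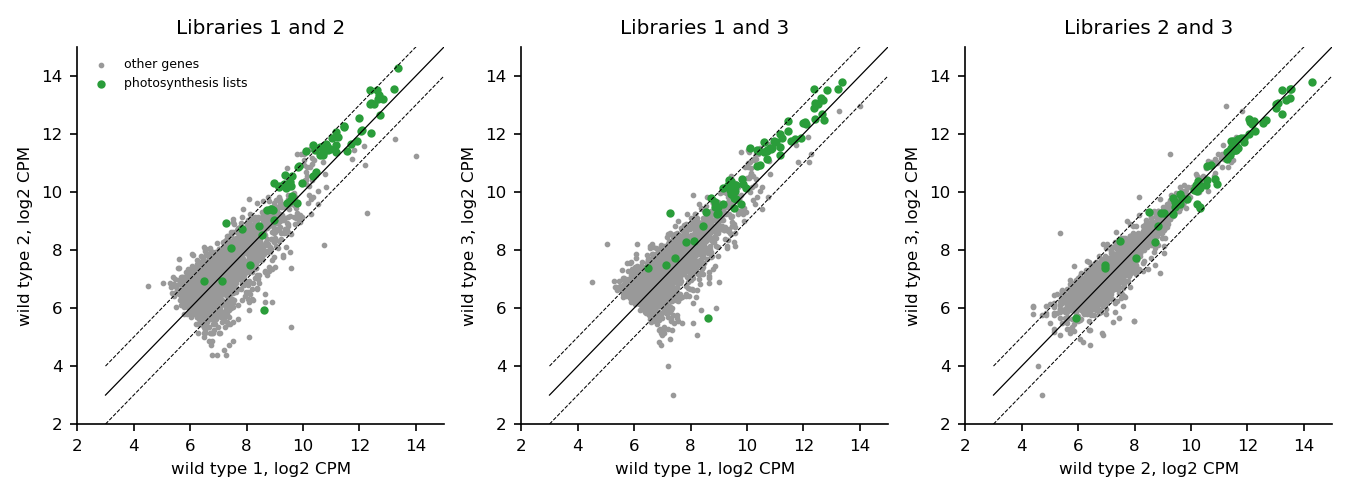
Each point is 1 of 2382 genes, placed by its TMM-scaled log2 CPM in a pair of wild-type libraries; green points belong to the photosynthesis lists, the solid line marks equal levels and the dashed lines a 2-fold difference. The cloud is wider in both panels with library 1, where most green points lie above the line of equality, than in the panel of libraries 2 and 3.

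Photosynthesis genes lay below the general shift in library 1. Over 71 tested members of the photosynthesis lists, the median log2 difference was -0.63 for library 1 minus 2 and -0.53 for 1 minus 3, against -0.10 and -0.17 over all genes. With plain totals the medians were -0.54 and -0.38, so the direction was the same. Between libraries 2 and 3 the median was 0.03. Past 2-fold, 11 of 71 were lower in library 1 than in library 2 and 8 of 71 lower than in library 3, where 5.37% and 5.58% of all tested genes were. In share of TPM the combined lists held 18.6%, 27.1% and 24.7% (25.9 without library 1). The photorespiration list showed medians of -0.68 and -0.91 over 12 tested genes, with CAT2 (AT4G35090), a peroxisomal catalase, at 509, 1441 and 1430 TPM. The wider annotation term photorespiration in the deposited table did not share these medians, at 0.22 and -0.04 over 43 tested genes. Library 1 also held the most reads on the 4 genes with a structural RNA match and on seed markers. The part of these reads in the photosynthesis difference was not tested. Without those 4 genes, found among the 143 searched, the combined share was 19.6%, 27.4% and 25.2%.

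Ribosomal protein genes were lowest in library 2 instead. Over 169 tested genes of the 40S and 60S classes, the median log2 difference was 0.17 for library 1 minus 2, -0.23 for 1 minus 3 and -0.40 for 2 minus 3. Past 2-fold, 17 of 169 were higher in library 1 than in library 2, where 6.13% of all tested genes were, and 0 were lower. These genes are short, and length itself moved with library. Across tested genes, Spearman's correlation of the log2 difference with gene length was -0.29 for library 1 minus 2, -0.11 for 1 minus 3 and 0.31 for 2 minus 3. In the 239 shortest genes, of median length 593 nt, library 2 was lower than library 3 by a median log2 difference of -0.33, and in the 238 longest, of median length 3290 nt, the median was 0.08. The part of length in the ribosomal difference was not tested.

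**Figure D5:**
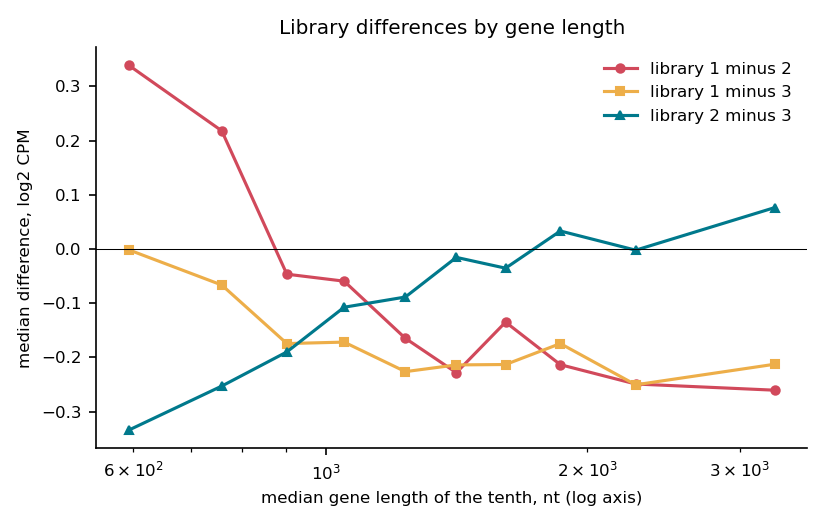
Median log2 difference in TMM-scaled CPM for 10 bins of the 2382 tested genes ordered by length, plotted at the median length of each bin on a log axis, with 1 line per pair of libraries. Library 2 falls below library 3 in the shortest genes (-0.33) and lies above it in the longest (0.08).

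Single genes that set library 1 apart came from several functions, and those named were chosen for standing farthest from both other libraries. CP12-1, a small protein that binds 2 Calvin cycle enzymes (AT2G47400, chromosome 2, 19446854-19447438), had 508, 21 and 56 reads, or 398, 60.6 and 50.1 TMM-scaled CPM. The log2 difference of library 1 was 2.71 from library 2 (95% counting interval 2.11 to 3.44) and 2.99 from library 3 (2.61 to 3.44), whereas the median over the 14 Calvin cycle genes was -0.74 for library 1 minus 2. HAT4, a homeodomain-leucine zipper factor of the shade response (AT4G16780, chromosome 4, 9449114-9450743), had 214, 9 and 8 reads. The glycine-rich protein gene GRP3S had 610, 26 and 72 reads, the defensin-like gene ATTI4 had 347, 11 and 50, and the unknown gene AT4G23870 had 188, 8 and 17. XTH24, a cell wall enzyme related to TCH4, had 262, 17 and 50 reads. The ribosomal genes RPL36B and RPS10B had 215, 15 and 50 and 232, 16 and 56 reads, and both have close copies.

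On the low side, library 1 had 28 reads for RXW8, an osmosensitive channel-like protein, against 38 and 134, which is 22.9, 109 and 118 TMM-scaled CPM. AT1G02820, of the LEA3 family, had 41, 41 and 334 reads, the widest range among these low genes. The aldolase FBA5 had 347, 308 and 1089 reads and ferredoxin FD1 had 199, 171 and 714, which after scaling put library 1 below both others by a log2 difference of at least 1.68 and 1.63. BT1 (AT5G63160), AT1G55960, AT1G75460 and AT3G07310 completed the 8 lowest, with log2 differences of at least 1.72, 1.70, 1.65 and 1.58.

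The genes lowest in library 2 included 3 of those with structural RNA. For PRIN2 this follows in part from the choice of genes, as it was searched for a match only because it stood apart. PRIN2, AT2G35750 and AT2G31141 had log2 differences of -3.25, -2.03 and -1.72 from library 3 and larger ones from library 1. The 5 other named genes were AT1G49700, of unknown function, with 2197, 101 and 1033 reads, the ribosomal gene RPL36AB (AT3G23390; 139, 7 and 75), AT5G20190 (199, 7 and 74), PATL2 (156, 7 and 62) and the arabinogalactan peptide gene AGP12 (373, 28 and 224). Above both others, OXS3, an oxidative stress tolerance gene, had 106, 253 and 47.5 TMM-scaled CPM. AT3G26510, with a PB1-type domain, had 48.7, 205 and 83.4, and AT3G07350 had 76.8, 168 and 76.4 on that scale. The photosystem II subunit PSBY had 501, 1284 and 710, and BT2, a relative of BT1, had 83.8, 157 and 58.0. AT5G25280, AT1G23390 and AT1G21000 lay above both by log2 differences of 0.97, 0.92 and 0.85.

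The genes lowest in library 3 included TCH3 and TCH4. TEM1, a repressor of flowering, had 190, 250 and 46.6 TMM-scaled CPM, TCH3 had 298, 117 and 33.5, and TCH4 had 133, 114 and 35.3. HAT4 was lowest in library 3 too. HSPRO2, a stress-responsive gene, had 126, 177 and 50.1, BGLU44, a beta-glucosidase, had 125, 86.0 and 26.5, and the unknown genes AT4G36500 and AT2G30930 had 118, 71.9 and 28.2 and 163, 86.0 and 37.9 on that scale. Above both others, library 3 stood out in AT1G02820 and in AT3G56290, with 100, 131 and 293 TMM-scaled CPM. SEP2 (AT2G21970), the chloroplast stress enhanced protein, had 121, 129 and 267, the Rubisco assembly factor gene RbcX2 had 91.6, 112 and 209, and the clock gene RVE8 had 58.8, 54.9 and 105. GSTU17, AT4G38840 and PAP14 (AT5G53450) lay above both by log2 differences of 0.94, 0.99 and 0.89.

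At the other end, the 5 genes with the smallest range among the tested ones differed by at most 0.03 in log2 CPM. They were CID12, which carries a poly(A)-binding protein interaction motif, at 77.6, 77.5 and 77.3 TMM-scaled CPM, the translation initiation factor subunit TIF3A1 at 131, 131 and 131, and ATNAP4, AT4G36210 and PVA42. Their reads in library 2 numbered between 27 and 46, and for CID12 the 95% counting interval of the log2 difference between libraries 1 and 2 ran from -0.63 to 0.67, far wider than the range itself.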

How the data were processed

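RNA-seq of 3 wild-type libraries of 14-day-old seedlings was used. The authors deposited, per the file headers, whole-number read counts per gene, a normalized signal per library, and the same signal per kb. Gene length was taken as the quotient of both signal columns. Per the submitters' processing notes, the tools named are HTSeq 0.6.1, TopHat2 2.0.14, DESeq, DESeq2 1.6.3, CASAVA 1.8.2 and Bowtie2 2.1.0, and the build is TAIR10. No source used here states the strand setting or the handling of reads with several matches. All groups came from the labels, replicate numbers from the titles, and 0 columns of per-sample values were left unmapped.

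TPM was computed from counts and length over nuclear protein-coding genes. edgeR 4.0.16 in R 4.3.3 gave TMM scaling, log2 CPM (prior count 1) and dispersion with an intercept-only design, over genes with at least 200 summed counts. Its steps were tested on simulated data. Counting intervals are exact binomial (95%). Matches came from BLAST+ 2.17.0 against the structural RNA genes and organelle genomes of TAIR10.1 (at least 80 nt, E value up to 1e-10). The search covered 143 genes, the 100 most abundant and those named for standing farthest from both other libraries. Upstream sequences came from the same RefSeq assembly, where 22105 genes had a locus tag (60 lacked one). Gene bounds were identical to the table's for 10.3%.

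Named genes were the 25 with the highest mean TPM, up to 4 per list, the 8 farthest above and the 8 farthest below both other libraries for each library, the reference genes, and the 5 with the smallest range; a few further list members are named after their values were seen. Of 280 genes in 29 lists, 273 were in the table. The members and lists were chosen with earlier results of these data known.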

Additional observations from a re-analysis of the deposited data

How the results depend on the processing

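No paired analysis was possible because all 3 libraries belong to 1 genotype and no groups were compared. The share of the 100 most abundant genes was 33.9% on average, 29.3% as raw counts and 54.5% over all nuclear features, and 33.3% to 34.9% with 1 library left out. Over all nuclear features, where non-coding RNA enters, the antenna held 7.15%, the photosynthesis lists 16.0% and ribosomal proteins 4.58%; ribosomal proteins held 4.40% as raw counts and 8.51% without genes that overlap another, where the antenna held 7.99%. Leaving out 1 library gave 9.13% to 11.6%, 21.7% to 25.9% and 6.79% to 7.59%. At least 10 TPM in every library was reached by 8346 genes, at least 5 reads by 10248 and at least 10 reads by 6452. With 1 library left out, 16103 to 17253 genes had at least 1 TPM.

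Counts past 2-fold are given for libraries 1 and 2, 1 and 3, and 2 and 3, in that order. They were 631, 487 and 217 of 5089 genes with a minimum of 100 summed reads. With a minimum of 500 they were 98, 81 and 16 of 770 genes, and with none 6021, 3766 and 4471 of 20620. Over the 2382 genes of the main setting they were 841, 764 and 350 past 1.5-fold and 55, 49 and 16 past 3-fold. By counting interval they were 80, 93 and 12 of the same 2382. With the counts of every library scaled in proportion to the shallowest total, 729 genes reached the minimum, and 87, 74 and 14 were past 2-fold. Those shares were 11.9%, 10.2% and 1.92%, against 11.5%, 10.2% and 2.77% in the main setting. No reads were drawn at random, so the ratios and their counting error stayed nearly as they were. This setting mainly changes which genes are tested, and it cannot show the part of depth in these counts. In each setting except no minimum, libraries 2 and 3 had the fewest genes past the limit. With no minimum that pair had more than libraries 1 and 3. The median biological coefficient of variation was 15.6% to 28.8% with 1 library left out, and 28.4% in DESeq2. Depth limits single genes in library 2 most. The correlations with length kept their signs at minimums of 100 and 500. The restriction to 40S and 60S names, the values without genes that match a structural RNA, and the list medians under other scalings were chosen after seeing the data.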

Other observations

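By the biological process terms of the deposited table, which cover 70.9% of the genes, photosynthesis (141 genes) held 16.7%, 25% and 22.4% of the TPM in libraries 1, 2 and 3, and translation (379 genes) 8.02%, 6.93% and 8.40%. The response to cadmium ion (348 genes) held 5.60%, 5.83% and 5.78%, and the response to salt stress (454 genes) 4.92%, 4.83% and 4.74%, both nearly even. Regulation of transcription, with 1790 genes, held 3.35%, 3.34% and 2.99%, and 0 of its genes were among the 100 highest. Terms overlap, so their shares do not add up. No rule set beforehand chose the terms named here among those with at least 30 genes, so they are examples only. The median log2 differences of library 1 minus 2 and of library 1 minus 3 were -0.10 and -0.17 over all tested genes. They were -0.50 and -0.78 over 32 tested genes of starch biosynthesis, and -0.65 and -0.70 over 28 of photosystem II assembly. Xyloglucan metabolism stood at 0.50 and 0.80 over 11 tested genes. Abscisic acid signalling, with 27 tested genes, stood at -0.06 and 0.43, while the larger term response to abscisic acid stood at -0.08 and -0.07 over 82.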
